A study of Mus musculus with 10 samples.

Results

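A bidirectional promoter is the stretch of DNA between 2 genes that are read away from each other, 1 on each strand, from starts that lie close together. Such promoters usually hold CpG islands and lack a TATA box, and the genes they serve often belong to basic cell functions such as DNA repair, translation and mitochondrial metabolism. Because the transcription machinery assembles in both directions from a single nucleosome-poor stretch, ATAC-seq, in which the Tn5 transposase cuts and tags open DNA, reads that stretch as a peak.

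The members were pairs of protein-coding genes of GENCODE release M21 on opposite strands whose most upstream transcript starts diverged and lay at most 1000 bp apart on chromosomes 1 to 19 and X. This rule gave 754 pairs, 1 promoter window each, of 20127 promoter windows examined, the rest being 19373 one-direction promoters. The pairs held 1487 of 21755 protein-coding genes (6.84%), and 21 genes took part in more than 1 pair, so that the 754 windows formed 733 groups without overlap. The distance between the starts ran from 1 to 987 bp, with a median of 129.5 bp and quartiles of 67 and 240 bp. A window ran from 500 bp left of the first start to 500 bp right of the second. A one-direction promoter was the most upstream start of a protein-coding gene with no opposite-strand coding start within 1000 bp, and its window of 1130 bp was matched to the median pair.

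The cells were G1E-ER4, mouse erythroid progenitor cells without functional Gata1 in which a fusion of GATA1 and the hormone-binding part of the estrogen receptor becomes active when β-estradiol is added. The 5 groups were untreated cells (0 h) and cells treated for 2, 6, 12 or 24 h with 1e-07 M β-estradiol. Every group had 2 libraries and grew with stem cell factor and erythropoietin. The line is 1 engineered clone that serves as a model of red cell differentiation, and nothing in the labels says whether replicates were separate cultures, so p-values measure only the spread between these libraries. Each deposited list held 10697 to 19855 peak summits on these chromosomes, and a window counted as listed when a summit lay in it. The lists give no read counts, so the depth of the libraries is unknown. Of 15 erythroid and progenitor markers, 6 to 11 per list had a summit within 1000 bp of the start, against 0 or 1 of 15 markers of other cells, although the starts used for Gata2, Slc4a1, Alas2 and Hba-a1 had none in any library.

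The DNA between the starts is shown for 5 pairs, 3 pairs known from textbooks whose starts were 40 to 300 bases apart and the 2 of that spacing with the highest peak scores. The sequences are those of the RefSeq copy of GRCm38.p6, whose chromosomes are those of mm10, written 5′ to 3′ on the plus strand, so that the minus-strand gene (named first) leaves to the left and the plus-strand gene to the right. Capitals mark matches, on either strand, to any of 11 consensus motifs. The matches found were those of NFY (CCAAT, or its reverse complement), SP/KLF, ETS and GATA, whose letters stand with the motif counts.
Mrps12/Sars2 (chr7:28741821-28741991): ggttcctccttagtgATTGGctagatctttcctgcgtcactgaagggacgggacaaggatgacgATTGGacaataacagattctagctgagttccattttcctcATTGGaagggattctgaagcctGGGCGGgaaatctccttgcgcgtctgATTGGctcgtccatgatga
Brca1/Nbr1 (chr11:101551956-101552148): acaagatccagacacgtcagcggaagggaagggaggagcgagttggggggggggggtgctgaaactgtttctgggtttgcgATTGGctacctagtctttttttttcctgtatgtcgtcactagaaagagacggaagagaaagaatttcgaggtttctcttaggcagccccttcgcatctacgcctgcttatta
Wrap53/Trp53 (chr11:69580256-69580358): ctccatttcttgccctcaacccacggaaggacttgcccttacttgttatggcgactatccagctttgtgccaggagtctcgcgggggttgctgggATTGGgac
Npc2/Isca2 (chr12:84773153-84773250): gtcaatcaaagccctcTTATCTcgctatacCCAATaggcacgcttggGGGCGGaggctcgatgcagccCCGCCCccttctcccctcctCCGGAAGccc
L3hypdh/Jkamp (chr12:72085440-72085588): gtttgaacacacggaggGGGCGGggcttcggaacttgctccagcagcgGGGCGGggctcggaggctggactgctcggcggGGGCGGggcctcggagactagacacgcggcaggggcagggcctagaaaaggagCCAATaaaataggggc
All 5 sequences held at least 1 NFY match, 4 of them in Mrps12/Sars2, and none held a TATA match. SP/KLF matches stood in 3 of them, with 3 in L3hypdh/Jkamp, 2 in Npc2/Isca2 and 1 in Mrps12/Sars2.

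Most bidirectional promoters had a peak in every library. Replicates 1 and 2 of the untreated cells listed 618 and 610 of the 754 pairs. After 2 h the numbers were 608 and 632, after 6 h 600 and 660, after 12 h 598 and 633, and after 24 h 607 and 605. Their share ran from 79.3% to 87.5%, with a mean of 81.8% ± 2.56 (SD, n = 10 libraries), while one-direction promoters were listed at 28.3% ± 1.67. The share of pairs was the higher in 10 of 10 libraries, by 51.7 to 55.5 percentage points, with a mean difference of 53.6 ± 1.44 (exact sign-flip permutation test over libraries, two-sided, p = 0.00195, adjusted over 5 tests p = 0.00195). This is the smallest p that 10 libraries allow, and it concerns libraries, since the same promoters stand in each list. The difference was present within either replicate number, at 80.4% against 28.1% in replicate 1 and 83.3% against 28.5% in replicate 2.

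**Figure D1:**
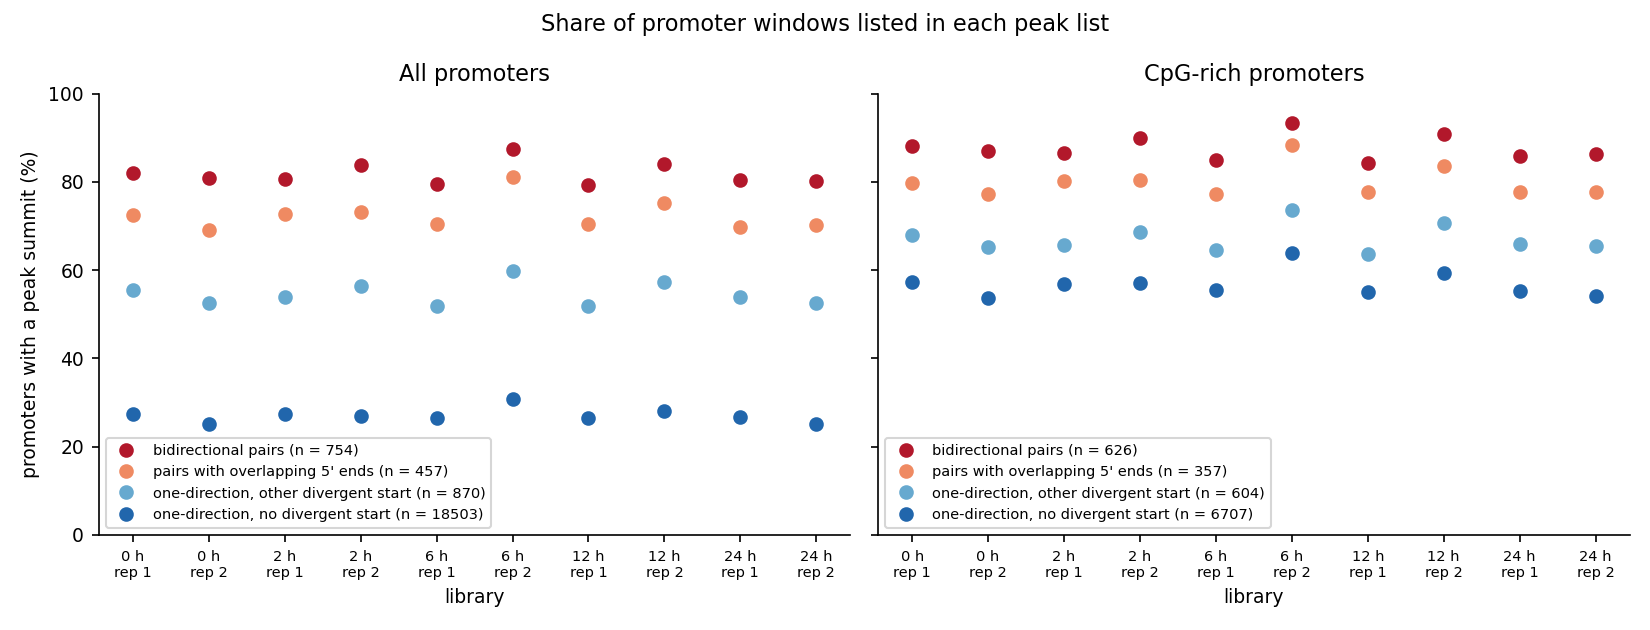
Share of promoter windows with a peak summit (y axis, percent) in each of the 10 libraries (x axis) for bidirectional pairs, pairs whose 5′ ends overlap, one-direction promoters with another divergent start and one-direction promoters without, over all promoters (left) and CpG-rich ones (right). Each point is 1 library, and in every library the order of the 4 classes is the same, with bidirectional pairs at 79.3% to 87.5% on the left.

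CpG content separated the classes as well. Windows with at least 50% GC and a CpG observed to expected ratio of at least 0.6 made up 83.0% of the pairs (626) and 37.7% of one-direction promoters (7311). Among these CpG-rich windows, 87.7% ± 2.82 of the pairs and 57.7% ± 2.99 of one-direction promoters were listed, a difference of 30.0 ± 1.37 percentage points, again in 10 of 10 libraries (exact sign-flip permutation test, adjusted p = 0.00195). Outside the CpG-rich class, 53.3% ± 2.52 of 128 pairs were listed, against 10.5% ± 0.988 of 12062 one-direction promoters.

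A further set of comparisons was chosen after these values were known. One-direction promoters that had, within 1000 bp upstream, a divergent start of a gene not annotated as protein-coding numbered 870, and 54.6% ± 2.60 of them were listed, against 27.1% ± 1.64 of the 18503 without such a start. Bidirectional pairs lay 27.3 ± 0.595 percentage points above that group, and 20.5 ± 0.615 above it among CpG-rich windows. Coding pairs whose 5′ ends overlapped by up to 1000 bp, so that the starts crossed rather than diverged, numbered 457 and were listed at 72.5% ± 3.58. Bidirectional pairs lay 9.37 ± 1.55 points above them, and 7.74 ± 1.44 among CpG-rich windows. All 4 differences had the same sign in 10 of 10 libraries (exact sign-flip permutation tests, adjusted over 6 tests p = 0.00195).

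Counted by promoter, 478 pairs (63.4%) were listed in all 10 libraries, 83 in 9 and 82 (10.9%) in none, and 194 (25.7%) in some but not all. One-direction promoters had the opposite make-up, with 18.4% in all 10 and 65.1% in none. Where a pair was in either replicate of a time point, both replicates had it in 87.0% to 91.1% of cases, against 77.4% to 82.2% for one-direction promoters. The mean difference was 9.17 ± 0.959 percentage points over 5 time points (exact sign-flip permutation p = 0.0625, the smallest that 5 values allow). Among CpG-rich windows it was smaller, at 6.16 ± 0.681 points, with mean shares of 89.6% and 83.4% (exact sign-flip permutation p = 0.0625).

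**Figure D2:**
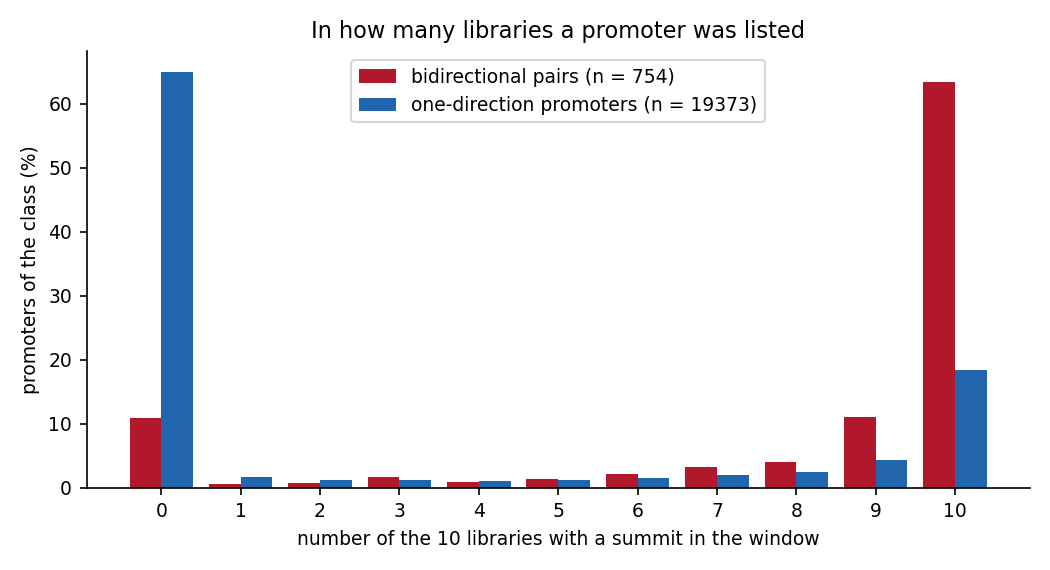
Number of libraries with a summit in the window (x axis) and the percent of each class with that number (y axis), for 754 bidirectional pairs and 19373 one-direction promoters. Pairs pile up at 10 libraries (63.4%) and one-direction promoters at 0 (65.1%).

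The listed pairs also had high scores. The deposited score is −log10 of the q-value of a peak within its own library, which is not scaled between libraries, so each highest score was turned into its percentile rank in its list. The median rank of listed pairs ran from 70.2 to 82.6 over the libraries, and that of listed one-direction promoters from 62.1 to 74.6. Pairs ranked higher in 10 of 10 libraries, by a mean of 7.17 ± 1.37 percentile points (exact sign-flip permutation test, adjusted p = 0.00195).

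The 5 pairs with the highest mean rank among those in all 10 libraries were Aldh6a1/Lin52, Srgap2/Fam72a, Npc2/Isca2, L3hypdh/Jkamp and Aamp/Pnkd. Aldh6a1, a mitochondrial enzyme of valine breakdown, and Lin52, a subunit of the DREAM complex that governs cell cycle genes, start 418 bp apart on chromosome 12, and their window scored 44.4 and 54.2 before treatment. Later scores were 49.8 and 56.6 (2 h), 34.7 and 68.4 (6 h), 39.7 and 43.6 (12 h), then 34.5 and 37.7 (24 h). Its rank lay between 99.6 and 99.9 in all 10 lists, whatever the score. Npc2, a lysosomal cholesterol carrier, and Isca2, a mitochondrial iron-sulfur assembly factor, start 99 bp apart on the same chromosome and had ranks of 98.2 to 99.9. Their highest summit lay between the starts in 4 of 10 libraries, at a median offset of −55 bp from the midpoint. Of the 10 highest summits of L3hypdh/Jkamp none lay between the starts, and their median lay 186.5 bp to the right of the midpoint, outside the stretch printed above. In Aamp/Pnkd and Aldh6a1/Lin52, by contrast, 10 of 10 summits lay between the starts, at a median of 15.5 and 2.5 bp from the midpoint.

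Across all pairs, the highest summit of a listed window lay between the starts in 33.9% to 45.5% of cases. That stretch took up 13.7% to 14.1% of the window, a difference of 26.8 ± 3.69 percentage points. It is given as a description, since summits gather near starts in one-direction promoters too and the width of the flanks sets the comparison. The median distance of the summit from the midpoint was 72.5 to 102 bp, and from the nearer start 60 to 79 bp. The median signed offset was −18.5 to 0.75 bp, and 52.4% ± 1.95 of the summits lay on the side of the minus-strand gene. In one-direction promoters the median summit lay 6 to 23 bp upstream of the start. In the 478 pairs of all 10 libraries, the SD of the summit position over libraries had a median of 74.4 bp (quartiles 49.1 and 103), close to the 71.9 bp of one-direction promoters. A shift of this size is of the order of the start distance itself in many pairs, and 66 of the 478 pairs had the summit between the starts in all 10 libraries while 98 had it there in none.

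**Figure D3:**
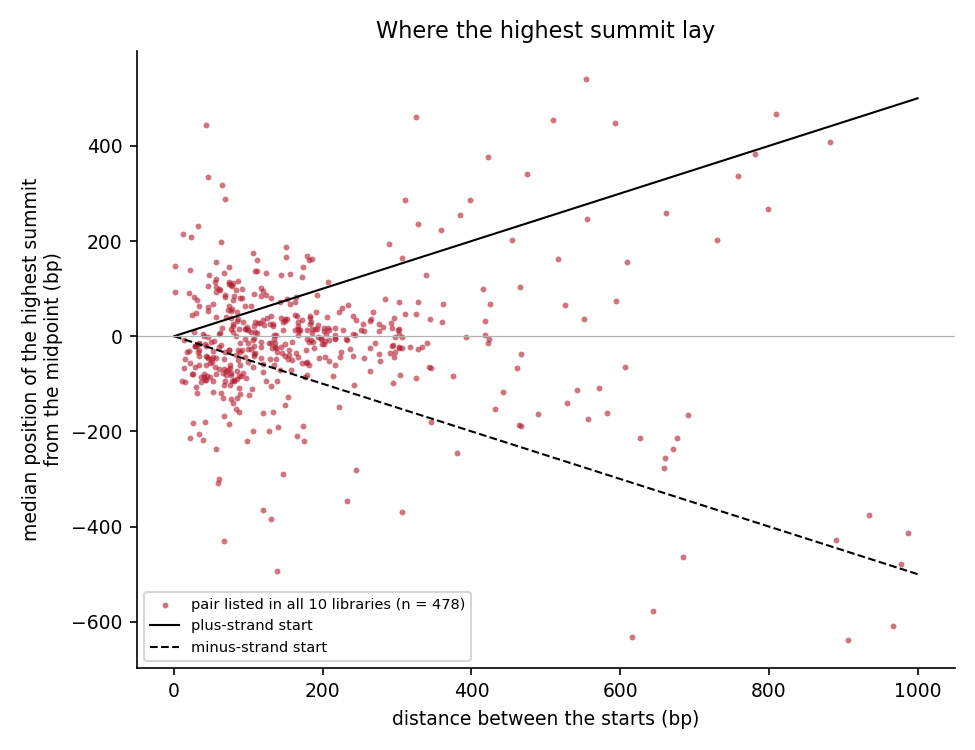
Median position of the highest summit over the 10 libraries, relative to the midpoint of the starts (y axis, bp, positive toward the plus-strand gene), against the distance between the starts (x axis, bp), for the 478 pairs listed in all 10 libraries. Points between the solid and the dashed line lie between the starts; at short distances many points fall outside the wedge, and at 201 to 300 bp most fall inside.

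The distance between the starts went along with where the summit lay. At 1 to 50 bp (128 pairs) 5.79% ± 1.93 of the highest summits lay between the starts, at 51 to 100 bp (184 pairs) 17.8% ± 4.31, at 101 to 200 bp (206 pairs) 50.3% ± 5.32, and at 201 to 300 bp (100 pairs) 76.4% ± 7.88. The share then stood at 70.7% ± 5.75 for 301 to 500 bp (66 pairs) and 61.9% ± 5.92 for 501 to 1000 bp (70 pairs). In the same order, the stretch between the starts took up 2.94%, 6.77%, 12.6%, 19.6%, 26.7% and 40.8% of the window. Summits spread evenly over the window would thus also lie there more often at larger distances. In the widest class the summits left the middle, at a median of 304 ± 31.4 bp from the midpoint and 124 ± 15.6 bp from the nearer start. The median rank of listed pairs was 64.2 ± 3.93 at 1 to 50 bp and 85.0 ± 3.64 at 201 to 300 bp.

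The share listed changed little up to 300 bp (81.0% to 85.3%), was 90.3% ± 2.49 at 301 to 500 bp and 67.1% ± 2.94 at 501 to 1000 bp, where 18 of 70 pairs (25.7%) were in no list. That widest class was also the least CpG-rich, at 61.4% against 82.5% to 89.8% in the others. On the 2 sides of the limit of the rule, 63.6% ± 7.42 of the 11 pairs 900 to 1000 bp apart and 45.0% ± 10.5 of the 12 pairs 1001 to 1100 bp apart were listed.

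**Figure D4:**
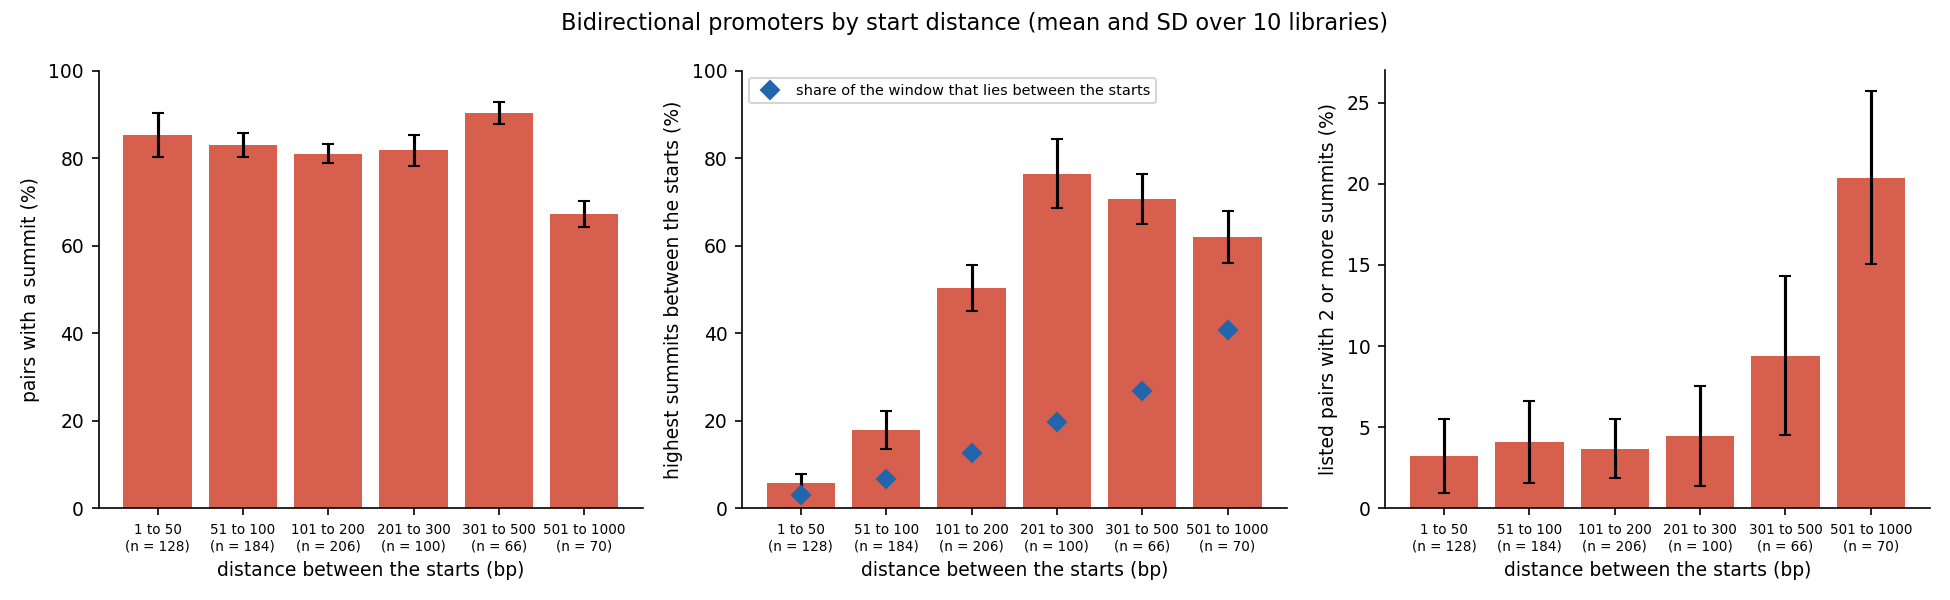
Bidirectional promoters by distance between the starts (x axes, bp): percent with a summit (left), percent of highest summits between the starts, with diamonds for the share of the window that lies there (middle), and percent of listed pairs with 2 or more summits (right). Bars are means and error bars SDs over 10 libraries; the middle bars climb from 5.79% to 76.4% and the right bars reach 20.4% in the widest class.

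A window with several summits was rare. Of the listed pairs, 2.15% to 8.07% per library (13 to 49 pairs) held 2 or more, against 1.84% to 5.76% of listed one-direction promoters. The pairs were higher in 10 of 10 libraries, by 2.12 ± 1.08 percentage points (exact sign-flip permutation test, adjusted p = 0.00195). Wide pairs made up much of this, with 20.4% ± 5.32 of those 501 to 1000 bp apart and 9.40% ± 4.91 of those 301 to 500 bp apart. The classes up to 300 bp stood at 3.21% to 4.45%, near the one-direction mean of 3.51%. A pair window grows with the start distance while a one-direction window stayed at 1130 bp. Wide pairs thus had more room for several summits, and window length cannot be told apart from start distance here. On lists of equal length the difference was 1.17 percentage points, and with only pairs up to 500 bp apart it was 0.86 (exact sign-flip permutation test, adjusted p = 0.0234). Several summits occurred 346 times when counted over the 10 libraries, in 182 different pairs. In 77.5% of these occurrences the outer ones lay on opposite sides of the midpoint, and the median spacing was 536 bp, against 441 bp in one-direction windows. The median pair window was 1130.5 bp long, so summits this far apart seldom fit on 1 side of the midpoint. The 77.5% is therefore only a description. Zfyve26/Rad51b, 978 bp apart on chromosome 12, held 2 summits in 10 of 10 libraries, and Btf3l4/Txndc12 (987 bp) and Lamtor2/Ubqln4 (684 bp) held 2 or more in 8. Zfyve26 encodes a protein of autophagy and Rad51b a factor of recombination repair.

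At the other end, Bag4/Lsm1 and Slc7a6os/Prmt7 start 1 bp apart on chromosome 8. Each held a single summit in every library, at a median of 92 and 147.5 bp to the right of the midpoint, on the side of Lsm1, a subunit of the mRNA decapping activator, and of Prmt7, an arginine methyltransferase. Their ranks ran from 54.9 to 91.8 and from 54.4 to 84.1.

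Of the pairs known from textbooks, 5 that were members are described. Atm and Npat, a DNA damage kinase and a histone gene activator, start 307 bp apart on chromosome 9 and were listed in 10 of 10 libraries at ranks of 90.8 to 99.0, with every summit between the starts. Mcm4/Prkdc, a replicative helicase subunit and a kinase of end joining (466 bp, chromosome 16), was in all 10 at ranks of 55.6 to 96.4, the lowest being that of 6 h replicate 1. Mrps12/Sars2, which encode a mitochondrial ribosomal protein and a mitochondrial tRNA synthetase, had ranks of 80.9 to 98.9, and 9 of its 10 summits lay in the stretch with the 4 NFY matches.

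Brca1/Nbr1 was in 5 lists, at ranks of 53.3 (0 h replicate 2), 62.7 (2 h replicate 2), 42.6 and 58.1 (12 h) and 88.0 (24 h replicate 1). In the other 5 libraries the nearest summit lay 506 to 622 bp outside the starts, past the edge of the window, whereas in 4 of the 5 that listed the pair it lay within 90 bp of the stretch between the starts. In 24 h replicate 1, which gave the rank of 88.0, it lay 460 bp outside the starts. Whether these are the same peak was not tested. Wrap53/Trp53 was in none, and in 10 of 10 libraries the nearest summit lay 834 to 1047 bp left of the Wrap53 start, inside the side of the minus-strand gene. A further 6 textbook pairs were no members because their starts overlap by 21 to 271 bp. Scored in the same way, Hspd1/Hspe1, Ppat/Paics and Psmb9/Tap1 were listed in 10 libraries, Fen1/Tmem258 in 7, Surf1/Surf2 in 4 and Col4a1/Col4a2 in 0.

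Of the erythroid and heme genes looked up, Urod was the one gene of a member pair. Urod encodes the fifth enzyme of heme synthesis and starts 904 bp from Hectd3 on chromosome 4. Its window was listed in both libraries at 0 h (ranks 13.6 and 29.4) and 6 h (23.0 and 43.6), and in replicate 2 alone at 2 h (54.5), 12 h (32.9) and 24 h (43.0). After 0 h it was thus in every replicate 2 list and in 1 of the replicate 1 lists, at low to middle ranks.

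**Figure D5:**
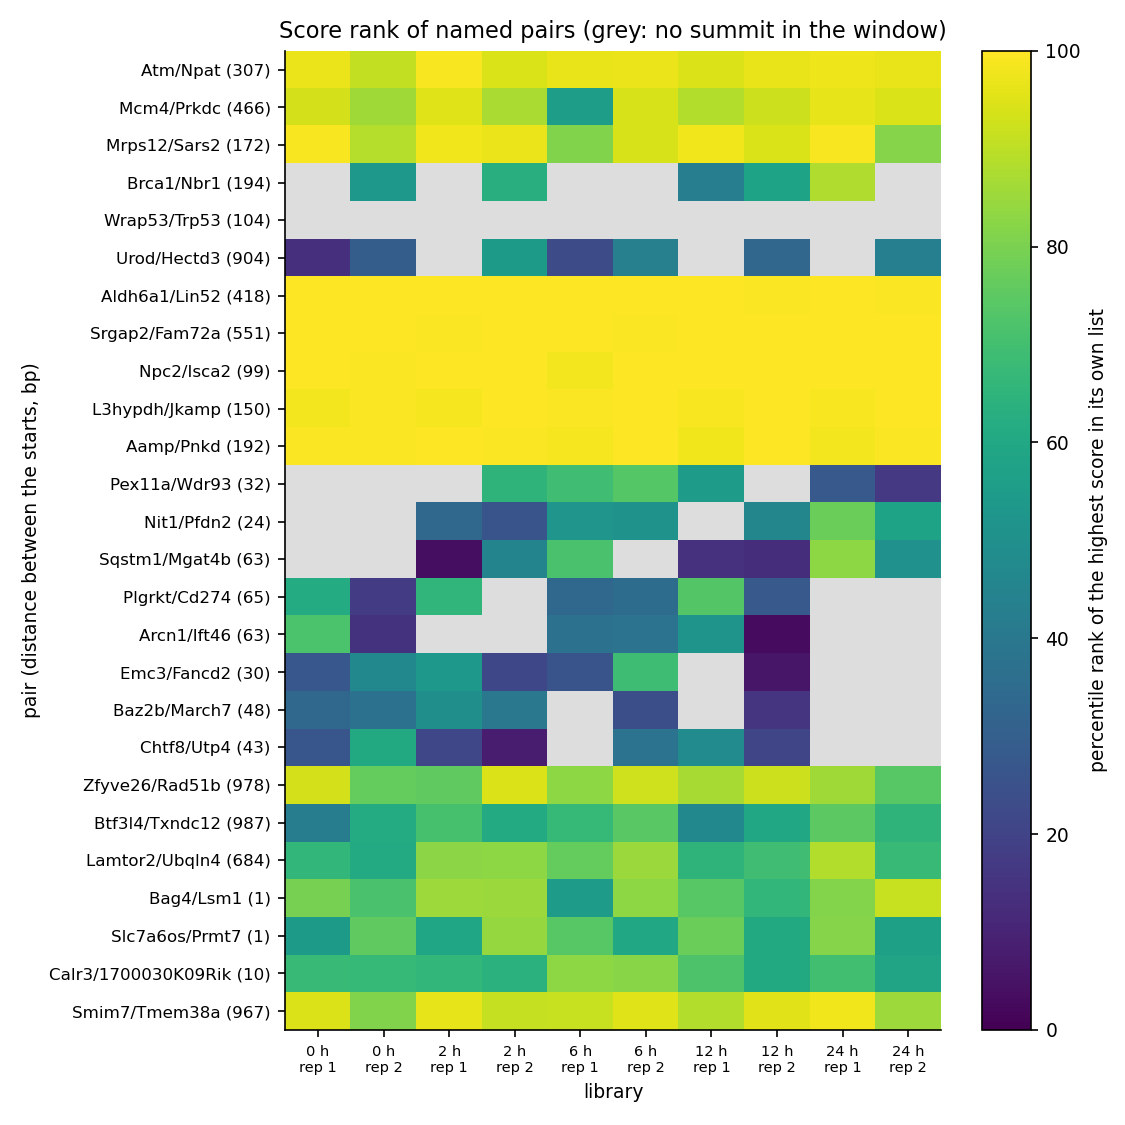
Percentile rank of the highest score of the named pairs (rows, with the distance between the starts in bp) in each library (columns), where 100 is the highest peak of the list and grey means no summit in the window. The 5 pairs with the highest mean rank are near 100 in all 10 libraries. The pairs gained or lost at 24 h have mean ranks of 32.1 to 51.3 where they are listed, with single ranks up to 82.9.

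Genes of several basic functions were found in member pairs more often than the 6.84% of all coding genes, as a count without a test. They were 27 of 67 histone genes (40.3%), 9 of 29 RNA polymerase subunits (31.0%), 18 of 72 genes of DNA replication and repair (25%), 18 of 78 mitochondrial ribosomal proteins (23.1%) and 24 of 107 respiratory chain subunits and assembly factors (22.4%). The cytosolic ribosomal proteins, a pattern that also takes the S6 kinases, gave 10 of 98, the zinc finger genes named Zfp gave 20 of 394 (5.08%) and the 1135 olfactory receptors gave 0.

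Among the 18 replication and repair pairs, 13 were in all 10 lists, 2 in some and 3 in none, where all 754 pairs had 63.4% in all 10, 25.7% in some and 10.9% in none. The 13 count the Rpa3 start in 2 pairs with the same ranks, Rpa3/Umad1 and Rpa3/Gm45062. Besides those above, Aimp2/Pms2 ranked 84.2 to 97.5, Rpa1/Smyd4 47.8 to 96.5, Prpf38a/Orc1 48.9 to 98.9 and Palb2/Dctn5 27.1 to 87.6. Pms2 works in mismatch repair, Rpa1 binds single-stranded DNA, Orc1 belongs to the origin recognition complex and Palb2 recruits BRCA2. Of the 18 mitochondrial ribosomal pairs 12 were in all 10 lists and 0 in none, and of the 24 respiratory chain pairs 14 and 0. None of these differences from all pairs was tested. Uqcrq/Gdf9, which joins a subunit of complex III to an oocyte growth factor, ranked 89.5 to 99.1. These examples were chosen after their values were seen.

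Of 14 histone pairs, which apart from Bola1/Hist2h2ab join an H2A or H3 gene to an H2B gene, 3 were in all 10 lists, 8 in some and 3 in none, a difference from all pairs that was not tested. Hist1h2bh/Hist1h3f ranked 49.5 to 86.5, and Hist1h2ap/Hist1h2br, Hist1h2bq/Hist1h2ao and Hist1h2ba/Hist1h2aa were in no list. Many histone genes have near-identical copies, and the authors kept only reads with a unique position. An empty window of such a gene cannot be told apart from one that lost its reads. Which of the 3 unlisted pairs this concerns was not tested. The same holds for Hspa1a/Hspa1l, in which Hspa1a has a near-identical neighbour.

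The 82 pairs in no list were 37.8% CpG-rich, against 83.0% of all pairs. They held 20 of the 78 pairs with a gene known only by a Gm or Rik name (25.6%), against 62 of the other 676 (9.17%). Among them were Col4a4/Col4a3 of basement membranes, Kirrel2/Nphs1 of the kidney slit diaphragm and the imprinted pairs Sgce/Peg10 and Peg3/Usp29, but also Rnf151/Rps2, which holds a gene of the cytosolic ribosome. In 63 of the 82, at least 1 of the genes had another annotated start more than 500 bp beyond the window, and in 21 a summit lay within 500 bp of such a start in at least 1 library (15 in all 10). These 15 include Pinlyp/Xrcc1, Slc27a5/Trim28 and Lig4/Abhd13, so for them the window at the most upstream starts was empty while another start of a gene of the pair had a peak. Rnf151/Rps2, with 7 other starts, likewise had a summit at another start in 9 of 10 libraries. These names too were chosen after their values were seen.

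The share of pairs listed did not follow the hours in β-estradiol beyond the spread. Untreated cells had 81.4% ± 0.750, and treated cells 82.2% ± 2.25 (2 h), 83.6% ± 5.63 (6 h), 81.6% ± 3.28 (12 h) and 80.4% ± 0.188 (24 h), as mean ± SD of 2 libraries. Pearson's r with hours was −0.26 (permutation p = 0.488, adjusted over 2 relations 0.559) and Spearman's rho −0.37 (permutation p = 0.302, adjusted 0.461), and r was 0.02 without the 24 h libraries, which are farthest from the median time. Within replicate 1 and replicate 2 r was −0.37 and −0.35. The difference between pairs and one-direction promoters had an r of −0.20 with hours (permutation p = 0.559, adjusted 0.559) and a rho of −0.27 (permutation p = 0.461, adjusted 0.461), with r at −0.17 and −0.77 within replicates 1 and 2. Each time point differed from 0 h by 0.80, 2.12, 0.20 and −1.06 percentage points in order, and an exact permutation test of 2 against 2 libraries cannot go below p = 0.333. The differences at 2, 6 and 12 h changed sign when replicate 2 of that time point was left out, to −0.80, −1.86 and −2.12, and that at 12 h was −0.33 without 0 h replicate 2. The high mean at 6 h came from replicate 2, the longest list (19855 summits), which held 660 pairs.

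Few pairs came or went. Gained means here that a pair was in both lists of a time point but in neither list of untreated cells, and lost the reverse. After 2 h, 3 of the 672 pairs listed at least once were gained and 2 lost, where the rates over all 7442 promoters listed at least once were 1.63% and 0.981%. After 6 h the pairs had 10 gains and 0 losses, beside 2.53% and 0.202% of all promoters. After 12 h they had 4 gains and 4 losses, beside 1.67% and 0.726%. After 24 h they had 3 gains and 6 losses, beside 1.05% and 1.40%. As shares of the 672 pairs, the gains were 0.446%, 1.49%, 0.595% and 0.446% and the losses 0.298%, 0%, 0.595% and 0.893%, so each was below the rate over all promoters. A promoter in all 10 lists can be neither gained nor lost by this rule. Such promoters were 478 of the 672 pairs but 3557 of the 6770 one-direction promoters listed at least once. The rates do not allow for this, so the lower rates are no result about the pairs.

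The pairs gained at 24 h were Nit1/Pfdn2, Sqstm1/Mgat4b and Pex11a/Wdr93, whose starts lie 24 to 63 bp apart. Sqstm1, which encodes the autophagy receptor p62, shared no summit with Mgat4b in either untreated library. The scores were 2.61 and 6.38 (2 h), 7.93 in replicate 1 alone (6 h), 3.38 and 3.68 (12 h), then 10.1 and 7.06 (24 h). Nit1/Pfdn2 was absent at 0 h and from 12 h replicate 1, and its ranks elsewhere ran from 25.9 to 77.4. Pfdn2 is a subunit of the prefoldin chaperone. Pex11a, a peroxisome division factor, was present with Wdr93 in 6 libraries from 2 h on.

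The pairs lost at 24 h were Plgrkt/Cd274, Arcn1/Ift46, Emc3/Fancd2, Baz2b/March7 and Chtf8/Utp4, the last counted under 2 gene identifiers of Chtf8. Plgrkt/Cd274, the latter encoding the checkpoint ligand PD-L1, scored 7.79 and 4.01 before treatment, 7.73 in replicate 1 alone after 2 h, 4.62 and 5.63 after 6 h, then 8.34 and 4.91 after 12 h. Emc3/Fancd2, which joins a membrane insertase subunit to a Fanconi anemia protein, was listed at 0, 2 and 6 h in both libraries and at 12 h in replicate 2 alone, at ranks of 5.89 to 69.1. None of the 8 pairs that were gained or lost at 24 h had a mean rank above 51.3 in the libraries that listed it.

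Among the 4035 promoters in all 10 lists, ranks were taken anew within that set, a measure added after the lists had been examined. Both 24 h libraries ranked above both 0 h libraries in 78 of 478 pairs (16.3%), beside 15.0% of all these promoters, and below them in 57 (11.9%), beside 14.0%. The median shift was 0.07 percentile points for pairs and −0.24 over all. The greatest rises, chosen by their values, were in Bola1/Hist2h2ab, from 29.7 and 7.26 at 0 h to 87.5 and 48.5 at 24 h, and Hmbox1/Ints9, from 33.1 and 10.3 to 84.2 and 53.6. The greatest falls were in S100pbp/Yars, from 70.1 and 85.1 to 2.42 and 55.0, and Plagl2/Pofut1, from 74.4 and 43.2 to 12.6 and 11.7. Replicates of 1 time point differed by as much as 63.1 percentile points in Bola1/Hist2h2ab and 52.6 in S100pbp/Yars.

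Replicate numbers differed in several measures of the pairs. Replicate 2 lists held 83.3% ± 2.90 of the pairs and replicate 1 lists 80.4% ± 1.05, a difference of 2.89 percentage points (exact permutation test of 5 against 5, p = 0.0794). When each list was cut to its 10697 highest peaks the difference was 7.59 points (exact permutation p = 0.00794). Both tests leave out the pairing of the libraries by time point, and a paired exact sign-flip test of 5 values cannot go below p = 0.0625. Replicate 1 lists had 2 or more summits in 7.17% to 8.07% of listed pairs and replicate 2 lists in 2.15% to 5%, with no overlap. The summit lay between the starts in 33.9% to 40.6% of pairs in replicate 1 and 41.6% to 45.5% in replicate 2, again without overlap. Whether depth or preparation goes with the number was not tested. The share listed had an r of 0.56 with list size (permutation p = 0.101, adjusted over 3 relations 0.302) and a rho of 0.16 (permutation p = 0.656, adjusted 0.656). Without the 2 lists farthest from the median size, 6 h replicate 2 and 24 h replicate 2, the pooled r was −0.23. Within replicates 1 and 2, with no list left out, r was 0.32 and 0.98. The pooled value thus depended on those lists and on the mix of replicate numbers.

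The sequence around the middle of the pairs was described by 300 bp centred between the starts, beside 300 bp centred the same distance upstream of one-direction starts. An ETS match (CCGGAAG) stood in 211 pairs (28.0%), against 9.66% of one-direction promoters and 10.3% of all promoters. An NFY match (CCAAT) stood in 45.1% against 37.7% (38.0% of all) and an SP/KLF match (GGGCGG) in 68.0% against 42.2% (43.2% of all). TATA matches (TATAAA) were fewer, at 4.38% against 12.7% (12.4% of all), as were GATA matches (AGATAA or TGATAA), at 7.29% against 16.5% (16.1% of all). Both strands were read, no string contains another, and matches of different motifs may share bases.

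Restricted to CpG-rich windows, the shares were 30.0% against 17.0% for ETS and 45.8% against 35.8% for NFY, but 71.7% against 76.2% for SP/KLF, 3.83% against 5.31% for TATA and 6.87% against 6.00% for GATA, so that the order of the classes turned for SP/KLF and GATA. The shares that follow are over windows of any CpG content, and 37.8% of the pairs in no list were CpG-rich against 83.0% of all pairs. ETS matches stood in 30.5% of the pairs in all 10 lists and 4.88% of those in none, and NFY matches in 53.1% and 40.2%. One-direction promoters in all 10 lists held them at 24.4% and 48.6%. The other 6 motifs, the cores of NRF1 (CGCATGCG), YY1 (ATGGCGGC) and THAP11/ZNF143 (ACTACAATT), the E-box (CACGTG), CREB (TGACGTCA) and E2F (TTTGGCGC or TTTCGCGC), stood in 0.796% to 10.7% of pairs and 0.454% to 7.45% of one-direction promoters.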

How the data were processed

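ATAC-seq of G1E-ER4 cells was deposited as 10 lists of peaks, 1 per library, 2 for each of 5 time points, with groups and replicate numbers taken from the sample titles. The authors removed adaptors, mapped the reads to mm10, retained uniquely placed reads and ran MACS with no fragment model on each library. As aligner their methods give Bowtie2, but the submitters' processing notes list Bowtie 1.0.0, Picard and MACS2, and no correction for the Tn5 cut is stated in the sources used here, so summit positions carry an error of some bases. The score column of the deposited lists holds −log10 of the q-value, not scaled between libraries, with a lowest value of 1.30. The position in column 3 was taken as the summit.

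Starts came from GENCODE release M21, and chromosome lengths of the reference matched the lists. The members, gene lists and motifs were chosen with earlier results of these data known. Named pairs were textbook pairs, pairs with an erythroid or heme gene, the 5 of highest mean rank, those gained or lost at 24 h, and the 3 with most double summits and the 3 with the closest and the farthest starts among pairs in all 10 lists. Some textbook pairs are not reported here, though the counts of promoters include them.

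Classes were compared within a list and the 10 differences tested by all 1024 sign patterns, with Benjamini-Hochberg adjustment. Relations with hours used 100000 permutations, two-sided. Promoters are not independent, and the scripts (Python 3.11.15, numpy 2.4.6, pandas 2.3.3, pysam 0.24.0) were tested on simulated data. Depth per sample is unknown. Differences between replicate 2 and replicate 1 in score rank were correlated between every 2 time points over the 4035 promoters in all lists, at 0.18 to 0.36, above the limit of 0.1 in 10 of 10, so the numbers were taken to pair the libraries. The alternatives were other flanks, distances, transcripts, score limits, list sizes and comparison classes, a replicate block, and leaving out each library. FPKM values of the study were not used here.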

Additional observations from a re-analysis of the deposited data

How the results depend on the processing

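The differences between bidirectional and one-direction promoters in share listed, in CpG-rich share listed, in rank and in several summits kept their sign and an adjusted p under the threshold under every alternative run. Leaving out 1 library in turn gave 53.3 to 53.8, 29.8 to 30.2, 6.99 to 7.40 and 1.97 to 2.32. The difference in several summits fell from 2.12 to 1.17 points on equal lists and with a score of at least 5, and to 0.86 with starts up to 500 bp apart. The share of summits between the starts minus the share of width followed the flank, at 19.8 points for 250 bp and 31.8 for 1000 bp, and was 26.3 to 27.5 with 1 library left out. The comparison class moved the share most, from 54.8 points against one-direction promoters without a divergent start to 9.37 against pairs with overlapping 5′ ends. The relations with hours stayed below 0 and passed no threshold under these alternatives and with 1 library left out, although r for the share of pairs was 0.02 without both 24 h libraries.

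With the replicate block, r with hours was −0.32 for the share of pairs (exact permutation within replicate number, adjusted p = 0.424) and −0.49 for the difference (adjusted p = 0.372), and it changed no call. Paired by time point, replicate 2 minus replicate 1 was 2.89 points (exact sign-flip permutation p = 0.25). That difference was 7.59 points on equal lists (exact permutation p = 0.00794), 8.20 with a score of at least 5 (p = 0.0397, exact) and 4.16 with a flank of 250 bp (p = 0.0397, exact). It ran from 1.83 to 3.65 with 1 library left out, and passed the threshold without 24 h replicate 2 (exact permutation p = 0.0159). The tests of this difference under the alternatives did not pair the libraries by time point. Equal lists turned the 2 h and 12 h differences from 0 h to −0.86 and −0.33 points. With 1 library left out, the differences at 2, 6 and 12 h ran from −0.80 to 2.39, −1.86 to 6.10 and −2.12 to 2.52, and that at 24 h from −1.59 to −0.53. The 24 h minus 0 h share was −2.32 points with a score of at least 5 and −2.45 with a flank of 250 bp. Pairs gained or lost at any time numbered 23, 44 with a score of at least 5, 35 with a flank of 250 bp, and 33 to 61 with 1 library left out, where a single library stands for its time point. That count moved by more than 1.5 times without either library of 0, 2 or 24 h, or without replicate 2 of 6 or 12 h. The same count was not made over all promoters, so it is no result about the pairs. The causes were not tested.

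Limits: the lists hold no counts, so an unlisted promoter is below the threshold of its list and is not shown to be closed, and the depth that sets this threshold is unknown. Starts are annotated, not measured in these cells.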
